A study of Rattus norvegicus with 8 samples.

Results

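The S100A genes encode small calcium-binding proteins, and 10 of them were followed here in injured and uninjured rat carotid arteries. They were S100a1, S100a3, S100a4, S100a6, S100a8, S100a9, S100a10, S100a11, S100a13 and S100a16, chosen by symbol from the 37209 genes of the deposited count table, where each of the 10 had 1 row. The study passed a balloon catheter through the left carotid artery of male Sprague-Dawley rats to damage the intima, the inner layer of the vessel, and collected the vessels 2 weeks later. The control was the undamaged right carotid artery, taken as a self-control within the animal. mRNA was sequenced from 4 injured and 4 control arteries, with no other treatment or genotype in either group. The labels do not say which numbered arteries came from one rat.

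S100 proteins bind calcium through paired EF-hand loops, work mostly as dimers, and change shape when calcium enters the cell, which lets them dock onto target proteins. S100A8 and S100A9 form calprotectin, a protein that neutrophils and monocytes store in large amounts and release as a danger signal. S100A1 tunes calcium release and uptake in muscle, whereas S100A4 and S100A6 are known from motile and dividing cells, among them cultured smooth muscle cells. S100A10 is the exception of the family, as it does not need calcium to hold its partner annexin A2.

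In the GRCr8 annotation of RefSeq all 10 genes lie on chromosome 2. S100a1 and S100a13 are next to each other, as are S100a8 and S100a9, while S100a5 separates S100a4 from S100a6. The RefSeq promoter sequences of that build, taken as 250 bases before the annotated start, held entries for 7 members, namely S100a3, S100a4, S100a6, S100a9, S100a11, S100a13 and S100a16. The letters TATAAA, the core of a TATA box, were searched on both strands and were found in S100a4 and S100a9, against 12.9% of all 33469 promoters. They are shown, with TATAAA in capitals, because in the comparison that follows S100a9 was called higher and S100a4 was lower without being called. S100a1, the member called lower there, had no promoter entry and was not searched.
S100a4, chr2:178388486-178388515, plus strand: ggcatggcagggTATAAAtaggtcagattg
S100a9, chr2:178490647-178490676, minus strand: caaggagctgccTATAAAtgctgggcttac
The match began 31 bases before the start of S100a4 and 42 bases before that of S100a9. On both strands of the same windows, CCAAT was found in S100a13 (34.0% of all promoters) and CATTCC in S100a3 (12.1%). None of the 7 held the AP-1 letters TGANTCA (6.34% of all promoters), the letters TTCNNNGAA of STAT sites (7.67%) or the CArG box of serum response factor (1.5%), nor did any hold the E-box letters CAGCTG, which 4007 of the 33469 promoters had. A match is a description of letters only.

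The libraries held 11459632 to 16658089 counts each. Levels are given in CPM, counts scaled to the size of the library with edgeR's TMM factors, and cannot be compared between genes of different length. Control artery 4 stood apart: across genes its log2 CPM correlated at 0.830 to 0.852 with the other controls, which correlated with each other at 0.976 to 0.978. A list of 10 sympathetic neuron markers, written with earlier results of these data known, summed to 11289 CPM there and to 3169 CPM in injured artery 3, against 5.74 to 211 CPM in the other arteries. Of that list Npy had at most 1 count in any artery, while the other markers were each highest in control artery 4. The labels' protocol text names prefrontal cortex, but of 5 brain markers Neurod6, Gad2 and Slc17a7 were each under 1 CPM in every library. Rbfox3, found in neurons, reached 2.36 CPM in control artery 4 and 1.74 CPM in injured artery 3, and Gfap, which brain shares with Schwann cells, reached 196 CPM in injured artery 3. The 8 contractile smooth muscle markers, which define the arterial wall, summed to 10558 CPM or more in each.

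Among the S100A genes, S100a9 rose and S100a1 fell after injury, and the other members did not pass the criteria. A gene was called when its Benjamini-Hochberg adjusted p in the quasi-likelihood test of edgeR was under 0.05 and its fold change above 2, and SE is the standard error of the log2 fold change. Of the 10 members, 9 had enough counts for the test, 1 was called higher and 1 lower. Over all 14359 genes tested, 10.9% were called, 8.31% higher and 2.57% lower, and with 9 genes a share this near the background is not a result about the family. The median log2 fold change of the 9 members was -0.18, against -0.06 for all genes tested. By the adjusted p alone 3 members passed, 1 higher and 2 lower, against 17.2% of all genes tested. The levels of the 2 groups did not overlap for 3 of the 9 members, 1 higher and 2 lower, where 23.7% of all genes tested did not overlap (14.2% higher and 9.51% lower). Neither call was stable. No member was called without control artery 2 or without injured artery 1, 2 or 4, nor when tested against a fold change of 2. Without control artery 4, S100a1 was the only member called. Without both control artery 4 and injured artery 3, a removal added after the data were seen, the calls were again S100a1 and S100a9. In bulk tissue, fewer cells of a type and less RNA per cell cannot be told apart.

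**Figure D1:**
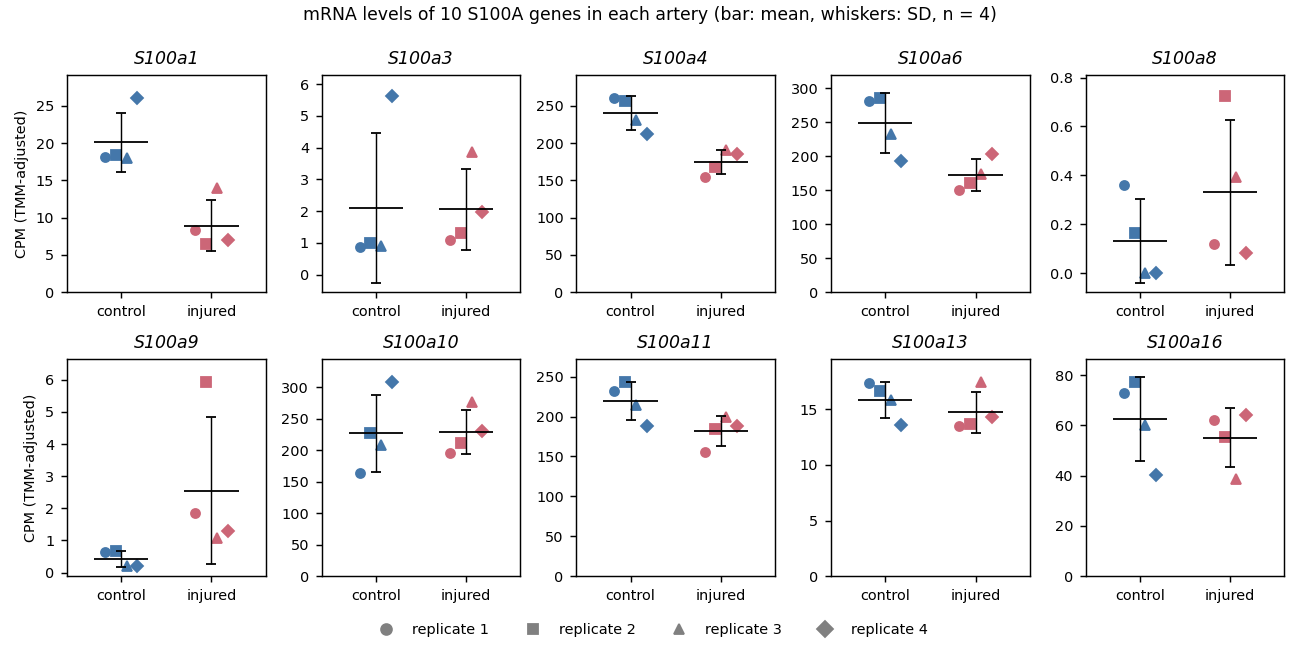
CPM of each S100A gene (vertical axes, linear) in the 4 control and 4 injured arteries. Each symbol is 1 artery, the long bar is the mean and the whiskers are the SD; S100a9 lies higher in all injured arteries, S100a1 and S100a4 lie lower in all of them, and the remaining genes overlap.

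**Figure D2:**
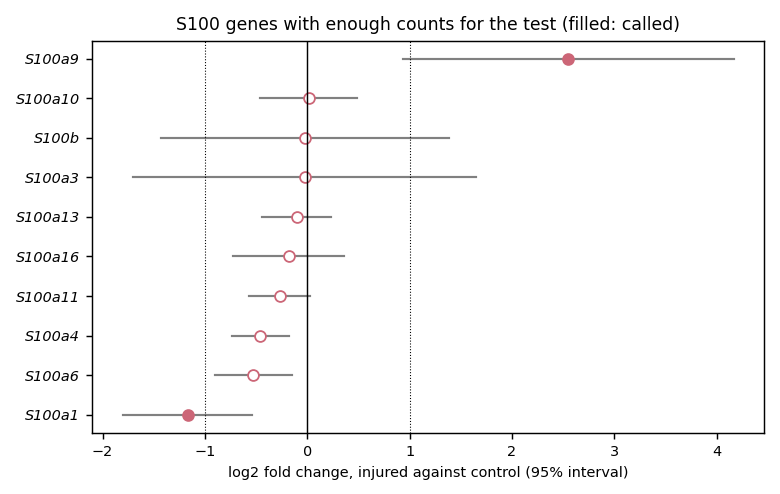
Log2 fold change of the tested S100 genes, injured against control (horizontal axis), with 95% intervals from edgeR's model; filled points passed both criteria and dotted lines mark a fold of 2. The intervals of S100a4 and S100a6 lie below 0 and within a fold of 2, whereas those of S100a3 and S100b span a fold of 2 in both directions.

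S100a9 encodes the larger subunit of calprotectin. It had 0.648, 0.656, 0.208 and 0.208 CPM in control arteries 1 to 4 and 1.85, 5.95, 1.07 and 1.31 CPM in injured arteries 1 to 4. These levels rest on 9, 8, 3 and 3 counts in the controls and on 31, 82, 19 and 16 counts after injury. Every injured artery was above every control, and injured artery 2 was far above the others. S100a9 had enough counts for the test only through the injured arteries, so its separation and p are not independent of the filter on low counts. The mean rose from 0.430 ± 0.256 to 2.54 ± 2.29 CPM (SD, n = 4 each), a 5.86-fold change or 2.55 on the log2 scale (SE 0.70, edgeR adjusted p = 0.0415), and the exact permutation test gave p = 0.0286, two-sided, the smallest that 4 arteries against 4 allow. Without injured artery 2 the log2 fold change was 1.71 (edgeR adjusted p = 0.0926). The call was also lost without control artery 1, 2, 3 or 4 or injured artery 1 or 4, at edgeR adjusted p of 0.0716, 0.0756, 0.106, 0.0517, 0.0715 and 0.0647, so it held in 1 of 8 such fits, that without injured artery 3. Without the filter on low counts edgeR gave 2.53 with an adjusted p of 0.0614, and the call was lost. DESeq2 gave 2.56 with an adjusted p of 0.00491.

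S100a8 encodes the smaller subunit of the same protein and had too few counts for the test. It had 5, 2, 0 and 0 counts in control arteries 1 to 4 and 2, 10, 7 and 1 counts in injured arteries 1 to 4. The groups overlapped, and the exact permutation test of log2 CPM gave p = 0.286, two-sided. A count of 0 allows a level of up to 3 counts, or 0.197 and 0.205 CPM of the total in control arteries 3 and 4. Without the filter on low counts its log2 fold change was 1.28 (SE 1.17, edgeR adjusted p = 0.511). Injured artery 2 had the highest level of S100a8 as well as of S100a9.

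Some neutrophil markers and most macrophage markers were higher after injury, as S100a9 was. Of 9 neutrophil markers, 3 had enough counts and 2 were called higher, namely Csf3r, the receptor for granulocyte colony-stimulating factor, with a log2 fold change of 4.05, and Lcn2, an iron-binding protein of neutrophils and other cells, with 1.89. Their edgeR adjusted p was 0.00480 and 0.0334. The list summed to 3.31 to 7.37 CPM in the controls and 9.98 to 29.1 CPM after injury, with the highest sum in injured artery 2. The granule genes Elane, Ngp, Camp and Ltf were at or near 0 in every artery, and Mpo, another, lay at 0.432 to 4.92 CPM in the controls and at most 0.505 CPM after injury. Of 10 macrophage markers, 9 were called higher, and the list summed to 212 to 321 CPM in the controls and 1861 to 2747 CPM after injury. Injured artery 2 again had the highest sum. Lyz2 alone reached 945 to 1755 CPM after injury, the largest part of each sum, and was highest in injured artery 2. Cd68, Csf1r, Itgam and C1qa were also highest there, while Adgre1, C1qb, C1qc, Mrc1 and Cd163 were highest in injured artery 1. The part of neutrophils and macrophages in the S100a9 result was not tested.

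S100a1 encodes the family member of striated and smooth muscle that binds ryanodine receptors, the calcium pump SERCA and titin. It had 18.1, 18.4, 18.0 and 26.1 CPM in control arteries 1 to 4 and 8.31, 6.46, 13.9 and 7.04 CPM in injured arteries 1 to 4. All injured arteries were below all controls, and control artery 4 and injured artery 3 were the highest of their groups. The mean fell from 20.1 ± 3.96 to 8.93 ± 3.42 CPM (SD, n = 4 each), a 2.25-fold lower level or -1.17 on the log2 scale (SE 0.27, 95% interval -1.80 to -0.54, edgeR adjusted p = 0.0230), and the exact permutation test gave p = 0.0286, two-sided. Without control artery 4 the log2 fold change was -1.02 (edgeR adjusted p = 0.0230), and without injured artery 3 it was -1.47 (adjusted p = 0.00523). The call was lost without control artery 2 or injured artery 1, 2 or 4, at adjusted p of 0.0514, 0.0666, 0.0695 and 0.0770 in edgeR's test, while the direction was kept. With library totals in place of TMM factors it was -0.998 (edgeR adjusted p = 0.0496), just short of a fold of 2.

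Of 8 contractile smooth muscle markers, 5 were called lower, with a median log2 fold change of -1.35. Their sums separated the groups as S100a1 did, at 17429 to 50551 CPM in the controls and 10558 to 16609 CPM after injury. Within the groups the order differed: control artery 4, with the most S100a1, had the lowest sum of the controls, and injured artery 3, with the most S100a1 after injury, had the lowest of all. Of 9 skeletal muscle markers, 7 were called higher, from sums of 84.5 to 253 CPM in the controls to 304 to 1100.3 CPM after injury. The 2 arteries highest in S100a1 within their groups were also the highest in sympathetic neuron markers. With both removed, a step added after the data were seen, the log2 fold change of S100a1 was -1.32 (SE 0.16, edgeR adjusted p = 0.000644). Leaving out the highest artery of each group also narrows the spread of S100a1, so this p is not independent support. The part of the muscle and nerve lists in the S100a1 result was not tested.

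**Figure D3:**
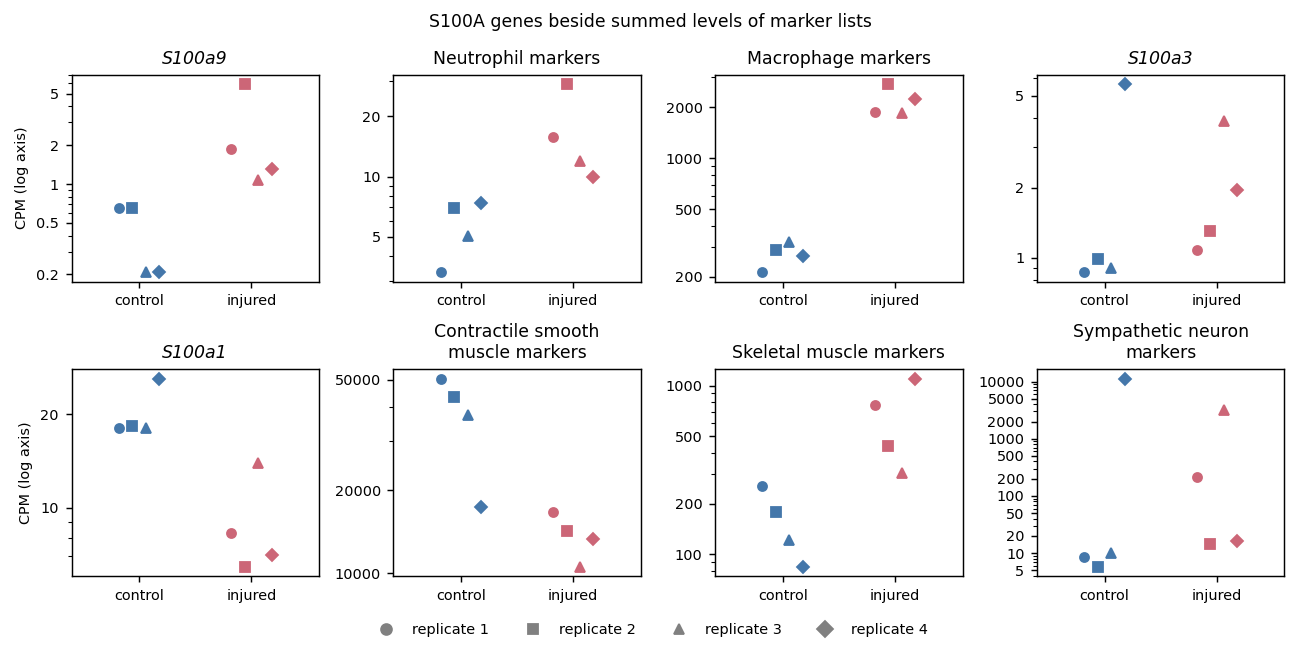
CPM of S100a9, S100a3 and S100a1 in each artery beside the summed CPM of marker lists, all on log axes. S100a9 and the neutrophil and macrophage sums share injured artery 2 as the highest, and Lyz2 is the largest part of the macrophage sums after injury. Control artery 4 and injured artery 3 are the highest of their groups for S100a3, S100a1 and the sympathetic neuron markers.

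S100a4 and S100a6 differed by less than a fold of 2, and the adjusted p was under 0.05 for S100a4 only. S100a4, which binds non-muscle myosin heavy chain and is known from migrating cells, had 261, 257, 231 and 212 CPM in control arteries 1 to 4. It had 155, 167, 191 and 186 CPM in injured arteries 1 to 4. The groups did not overlap. The mean was 240.1 ± 22.8 CPM in the controls and 175 ± 16.5 CPM after injury (SD, n = 4 each), and the log2 fold change was -0.46 (SE 0.12, 95% interval -0.74 to -0.18, edgeR adjusted p = 0.0360). It thus met the criterion on the adjusted p alone, as 6.39% of all genes tested did in the lower direction, and the exact permutation test gave p = 0.0286, two-sided. In fits that left out 1 artery the adjusted p from edgeR's test lay between 0.00845, without control artery 4, and 0.104, without injured artery 2, and was under 0.05 in 2 of 8. It was also above 0.05 with upper-quartile factors (0.103), without the filter on low counts (0.0605) and with at least 10 counts in every artery (0.0520), while DESeq2 gave 0.00248.

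S100a6, or calcyclin, a gene known to be induced when resting cells enter the cell cycle, had 281, 286, 233 and 193 CPM in control arteries 1 to 4. It had 151, 161, 174 and 204 CPM in injured arteries 1 to 4. Control artery 4 lay below injured artery 4, and all other controls lay above all injured arteries. The log2 fold change was -0.53 (SE 0.17, edgeR adjusted p = 0.0639), and the exact permutation test gave p = 0.0571, two-sided. Without control artery 4 it was -0.63 (edgeR adjusted p = 0.00910), still within a fold of 2. The proliferation markers, 7 of 7 of them called higher, summed to at most 17.5 CPM in the controls and 81.5 to 124 CPM after injury.

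S100a11, which binds annexin A1 at membranes, had overlapping groups. It had 232, 243, 214 and 188 CPM in the controls and 155, 185, 199 and 188 CPM after injury. The log2 fold change of -0.27 (SE 0.13, 95% interval -0.57 to 0.03) came with an edgeR adjusted p of 0.198, and of 0.0470 without control artery 4. The GRCr8 annotation names 5 pseudogenes and 2 further genes after S100a11, and 1 pseudogene after S100a10, so reads of these genes may have been split or lost in counting.

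These small differences also depend on the scale. Library totals in place of TMM factors shifted the median log2 fold change of all genes by 0.175. With them S100a4 was at -0.28 (edgeR adjusted p = 0.122) and S100a6 at -0.34 (edgeR adjusted p = 0.151). Relative to the median of all genes, which such a change of scale moves with the members, S100a4 was at -0.40 on either scale and S100a6 at -0.47 and -0.46.

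S100a10, the partner of annexin A2, had 164, 227, 208 and 309 CPM in control arteries 1 to 4 and 197, 212, 276 and 231 CPM in injured arteries 1 to 4. The groups overlapped, and the log2 fold change was 0.01 (95% interval -0.46 to 0.49, edgeR adjusted p = 0.973), with its sign turning in 5 alternatives. Control artery 4 and injured artery 3 were again the highest of their groups.

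S100a13, which takes part in the release of FGF1 and interleukin-1 alpha by a route that bypasses the usual secretory pathway, had the smallest spread of the 9 tested members, with an SD of 0.160 over the 8 arteries in log2 CPM. It lay between 13.6 and 17.4 CPM in the controls and between 13.5 and 17.5 CPM after injury. The log2 fold change was -0.10 (95% interval -0.44 to 0.24, edgeR adjusted p = 0.678). Its neighbour S100a1 fell, while S100a13 overlapped between the groups, and the difference between the 2 genes was not tested.

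S100a16, a widely expressed member, had 72.7, 77.3, 60.3 and 40.1 CPM in control arteries 1 to 4 and 62.3, 55.5, 38.5 and 64.2 CPM in injured arteries 1 to 4. Control artery 4 and injured artery 3 were the lowest of their groups. The difference was -0.18 on the log2 scale (95% interval -0.73 to 0.36, edgeR adjusted p = 0.643).

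S100a3, a member known from hair follicles, was low in most arteries, at 0.864, 0.984 and 0.901 CPM in control arteries 1 to 3 and 1.08, 1.31 and 1.96 CPM in injured arteries 1, 2 and 4. Control artery 4 had 5.63 CPM and injured artery 3 had 3.87 CPM. The log2 fold change was -0.03 with a wide 95% interval of -1.71 to 1.65 (edgeR adjusted p = 0.985). Without control artery 4 it was 1.16 (edgeR adjusted p = 0.119), and its sign also turned in other alternatives that kept this artery. With control artery 4 and injured artery 3 both removed it was 0.64 (edgeR adjusted p = 0.236). In GRCr8 the gene overlaps 2 other entries, Mier3-ps1 and S100a2.

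**Figure D4:**
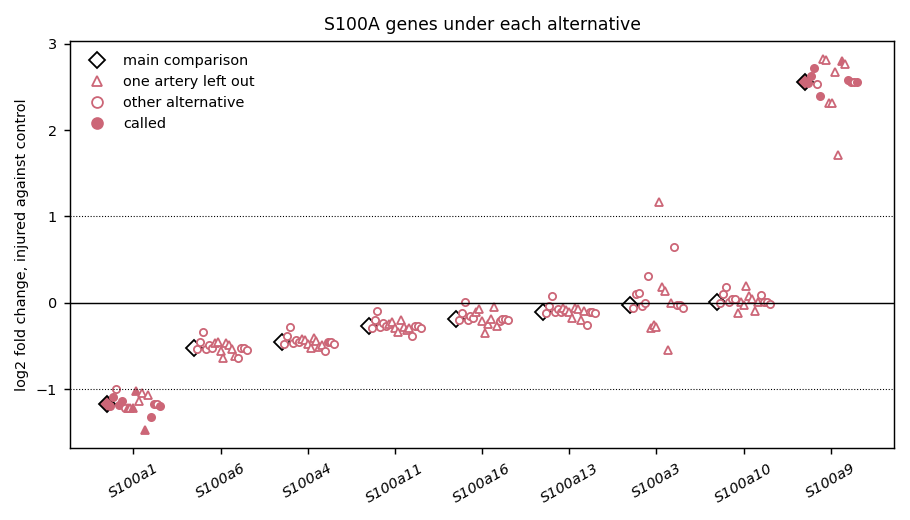
Log2 fold change, injured against control (vertical axis), of the 9 tested S100A genes in the main comparison (diamonds), with 1 artery left out (triangles) and under the other alternatives (circles). Filled symbols were called under that setting, S100a4 only with the adjusted p alone; S100a9 stayed above 1.7 and S100a1 between -1.47 and -0.998, and S100a3 and S100a10 scattered around 0.

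Of the S100 genes outside the 10 members followed here, 9 were listed and only S100b had enough counts for the test. S100b, a marker of Schwann cells and other glia, had 18.2, 42.8, 53.3 and 115 CPM in control arteries 1 to 4 and 29.0, 28.2, 108 and 60.5 CPM in injured arteries 1 to 4. The log2 fold change was -0.02 (SE 0.61, edgeR adjusted p = 0.986), and 0.57 without control artery 4. S100a5, which lies between S100a4 and S100a6, had 126 counts in control artery 4, 13 in injured artery 3 and at most 5 elsewhere. S100a14 had 4 to 12 counts per artery and S100a7a, S100p and S100z at most 5. S100g, S100vp and RGD1562234, an older symbol of S100a7l2, were listed at 0 in every artery, which allows up to 3 counts.

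For each member, the 2 genes with the most similar profile were looked up by the root mean square difference of mean-centred log2 CPM over the 8 arteries, among 12899 genes, or 12900 for S100a9. For S100a9 they were Phf11 (0.243) and Ms4a7 (0.398), the latter a membrane protein of macrophages. For S100a1 they were Ankrd29 (0.128) and Fads1 (0.147), a fatty acid desaturase. For S100a4 they were Arf1 (0.0447), a small GTPase of the Golgi, and Bckdk (0.0700), and for S100a6 they were Large (0.0937) and Recql (0.0972). S100a3 was nearest to Stoml1 and Srxn1, S100a10 to Mars and Casc3, S100a11 to Mapkapk5 and Gopc, S100a13 to Acad8 and Atp5g2, and S100a16 to Lysmd3 and Nuak1, at 0.0479 to 0.209. Among the members themselves, S100a4 was the 5th nearest gene to S100a6, at 0.110, and S100a6 the 45th nearest to S100a4. S100a11 was the 38th nearest to S100a4, at 0.106, and S100a13 the 96th nearest to S100a11, at 0.119.

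Genes that work with S100A proteins were followed as a list of 37. Of these, 34 had enough counts, 10 were called higher and 0 lower, against 8.31% and 2.57% of all genes tested, and their median log2 fold change was 0.05. The 3 genes Myh9, Il1a and Cybb were not tested. Without control artery 4, 11 were called.

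Of 4 cell surface receptors for extracellular S100A proteins, 1 was called higher. Ager, which encodes the receptor RAGE, had 3.89, 4.59, 5.20 and 4.10 CPM in control arteries 1 to 4 and 9.45, 9.50, 7.69 and 13.2 CPM in injured arteries 1 to 4. The groups did not overlap, and the log2 fold change was 1.16 (SE 0.21, edgeR adjusted p = 0.00886). Without injured artery 4 it was just under 1 on the log2 scale, at 0.995, and was not called. Tlr4, the other main receptor, had 4.80 to 7.14 CPM in the controls and 7.41 to 14.9 CPM after injury, with a log2 fold change of 0.96 (edgeR adjusted p = 0.0367), short of a fold of 2. It was called without injured artery 3, at 1.13, and without both that artery and control artery 4, at 1.03, as well as with upper-quartile factors, at 1.04, and library totals, at 1.14. Cd14, which hands ligands to TLR4 and marks monocytes, was called with 1.54 (edgeR adjusted p = 0.00766). The adaptor Myd88 had 0.69 and an adjusted p of 0.0300. Ly96 had 1.25 with overlapping groups and was not called (edgeR adjusted p = 0.104). Diaph1, Nfkb1 and Rela had -0.32, 0.28 and -0.21, with adjusted p above 0.1. Bsg and Cd36, which also bind S100A9, had log2 fold changes of -0.04 and 0.15.

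Calprotectin delivers arachidonic acid to the phagocyte NADPH oxidase, of which Ncf1 and Cyba were called higher. Ncf1 had 1.66 to 2.92 CPM in the controls and 25.9 to 45.0 CPM after injury, a log2 fold change of 3.69 (edgeR adjusted p = 0.000245). Cyba had at most 30.8 CPM in the controls and 59.0 to 85.5 CPM after injury, a log2 fold change of 1.67 (edgeR adjusted p = 0.00697). Cybb, the catalytic subunit, was listed at 0 in all 8 arteries, which is not read as its absence. The macrophage sums given above moved with Ncf1 and Cyba, and the part of macrophages in these values was not tested.

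The annexins, to which S100A6, S100A10 and S100A11 bind, were not called. Anxa2 had 515 to 593 CPM in the controls and 554 to 665 CPM after injury, a log2 fold change of 0.18 (SE 0.12, edgeR adjusted p = 0.346). Anxa6 was lower without overlap, at 584 to 815 CPM against 422 to 514 CPM, with a log2 fold change of -0.62 (edgeR adjusted p = 0.0214) that stayed within a fold of 2. The scaffold Ahnak and the annexins Anxa1, Anxa5 and Anxa11 had log2 fold changes from -0.49 to -0.18 and adjusted p above 0.1.

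The complex of S100A10 and annexin A2 gathers plasminogen and its activator at the cell surface. Of the 4 genes of that system, Plau, the urokinase, and its receptor Plaur were called at 2.72 and 2.17 on the log2 scale (edgeR adjusted p of 0.000391 and 0.00148). Plat, the tissue activator, had 98.3 to 108 CPM in the controls and 173 to 223 CPM after injury, without overlap. Its log2 fold change of 0.87 (edgeR adjusted p = 0.00206) stayed within a fold of 2. Plg itself had at most 3.60 CPM, with -0.75 (adjusted p = 0.0951). S100a10 and Anxa2, which form the complex, were thus not called while both Plau and Plaur were.

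None of the 3 tested intracellular partners of single members was called. Cacybp, the calcyclin-binding protein, had 74.8 to 137 CPM in the controls and 58.2 to 87.6 CPM after injury, a log2 fold change of -0.58 (edgeR adjusted p = 0.140). Sugt1, which like Cacybp binds S100A6, and the phosphatase Ppp5c had -0.34 and -0.29, with adjusted p above 0.1. Myh9, the myosin that S100A4 binds, was listed with 2 to 13 counts per artery, too few for the test. As nearly every cell uses this gene, the count is not read as its level.

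Of the calcium-handling partners of S100A1, Ryr1, Atp2a1 and Ttn were called higher. These are genes of skeletal or striated muscle, and the skeletal muscle markers given above moved with them. Ryr1 had 0, 2, 0 and 1 counts in control arteries 1 to 4 and 263, 142, 100 and 355 counts in injured arteries 1 to 4. Ttn had 4 counts or fewer in each control and 48 to 215 after injury. Every injured artery was above every control for both, with edgeR adjusted p of 0.00116 and 0.00451. Both genes had enough counts for the test only through the injured arteries, so these values are not independent of the filter on low counts. Atp2a1 had 2.78 to 7.85 CPM in the controls and 28.3 to 136 CPM after injury, a log2 fold change of 3.71 (edgeR adjusted p = 0.00522). The forms known from heart and smooth muscle were not called, with log2 fold changes of -0.19 for Ryr2, -0.61 for Atp2a2 and -0.60 for Pln, and adjusted p of 0.569, 0.0687 and 0.218.

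Fgf1, which S100A13 helps to release, had 49.0 to 62.1 CPM in control arteries 1 to 3 and 481 CPM in control artery 4. After injury it had 30.8 to 41.0 CPM in arteries 1, 2 and 4 and 167 CPM in artery 3. Its log2 fold change was -1.24 (SE 0.94, edgeR adjusted p = 0.413), and it turned to 0.34 without control artery 4. Syt1, a synaptic protein of the same release complex, had 1887 CPM in control artery 4 and 300.3 CPM in injured artery 3, at most 23.1 CPM in the other injured arteries and at most 0.554 CPM in the other controls. It was not called, but was called higher without control artery 4, at 7.85. Il1a had 5 counts in injured artery 2, 3 in injured artery 4 and 0 elsewhere. Control artery 4 and injured artery 3 are the arteries with the most sympathetic neuron markers, whose part in these values was not tested.

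**Figure D5:**
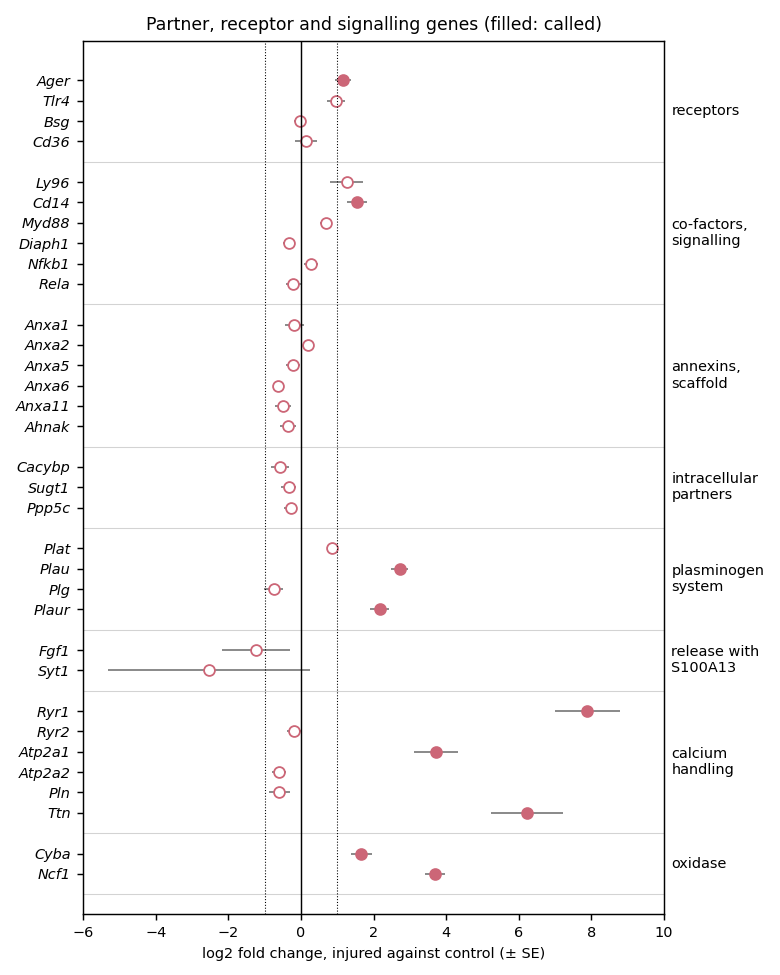
Log2 fold change, injured against control, with the SE (horizontal axis), of tested partner, receptor and signalling genes, grouped by role; filled points were called and dotted lines mark a fold of 2. The called genes are all on the higher side, and the annexins and intracellular partners lie within a fold of 2.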

How the data were processed

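mRNA was sequenced from 4 injured and 4 control carotid arteries. The authors deposited raw counts per gene, 1 column per artery, without normalization. The submitters' processing notes name HISAT2 2.0.4. The counting tool, genome build and strand setting are not given in the sources used here, so genes with near-identical copies or overlaps are uncertain. Groups and replicate numbers came from the sample titles. The p-values set the difference between the groups against the spread between these arteries. They come from unpaired tests, except in the fit with the replicate number as a block. The control was described as the other artery of the same animal, but the labels do not link the arteries. The p-values therefore do not take any pairing within rats into account.

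Counts of 37209 genes (11459632 to 16658089 per artery) were read in R 4.3.3. With edgeR 4.0.16, 14359 genes passed filterByExpr, libraries were scaled by TMM factors, and injured arteries were tested against controls by quasi-likelihood without a covariate. Genes low in the controls could pass that filter through the injured arteries alone, and their calls are not independent of it. Calls needed a Benjamini-Hochberg adjusted p under 0.05 and a fold change above 2, the study's criteria. Standard errors came from the F statistic. CPM values use TMM factors, except floors of 3 counts, which use library totals and cover counting error only (0.18 to 0.262 CPM). Exact permutation tests used log2 CPM with a prior count of 2 over 70 relabellings. The tests were tested on simulated data.

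Alternatives were DESeq2 1.42.0, RLE or upper-quartile factors, library totals, no filter, at least 10 counts in every artery, the replicate number as a block, each artery left out, the adjusted p alone, and a test with a fold change of 2 as its null. The removal of both control artery 4 and injured artery 3 was added after the data were seen.

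The members, lists and tests were chosen with earlier results of these data known. The plan named all members, called partners, the extremes of each role and 5 partners chosen by role (Ager, Tlr4, Anxa2, Myh9 and Cacybp). The other listed partners were named as well, apart from 1 described below. Also named were the 2 genes most alike to each tested member (average log2 CPM above 1), and markers needed beside a member. Protein sequences were not used here. Genes were matched by symbol, then by GRCr8 synonyms (all 37 partners and 93 of 93 markers). A listed partner that was counted with the others is not reported here by name or in the partner plot. Motifs were searched in RefSeq promoters of GRCr8.

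Other marker lists were compared without a list test. In T cell genes 2 of 6 tested were called higher, in cartilage 4 of 5 higher and 1 lower, in endothelial 2 of 6 higher and 1 lower, in fibroblast 1 of 5 higher and 1 lower, and in adipocyte, Schwann cell, sympathetic neuron and brain genes 0 of 4, 6, 5 and 1 by edgeR.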

Additional observations from a re-analysis of the deposited data

Results flagged for a closer look

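In each group of 4 arteries, the gap between the highest or lowest artery and its nearest neighbour was divided by the whole range and compared with Dixon's 95% critical value for 4 values. Of 94 groups examined, 16 exceeded it, where about 4.7 would for independent and normally distributed values. The groups share the same arteries and are not independent, so the excess is not a test. Control artery 4 was the artery in 9 of them, injured artery 3 in 4 and injured artery 2 in 3.

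Among the S100 genes, control artery 4 stood above the other controls for S100a1 (0.956, 26.1 against 18.4 CPM), S100a3 (0.975, 5.63 against 0.984 CPM) and S100a5 (0.975, 8.76 against 0.216 CPM). Injured artery 2 stood above the other injured arteries for S100a9 (0.839, 5.95 against 1.85 CPM).

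Among the partner genes, control artery 4 stood apart for Fgf1 (0.970, 481 against 62.1 CPM), Syt1 (1.000, or 0.999782 unrounded), Ppp5c (0.880, 98.0 against 64.1 CPM) and Plaur (0.991, where it was lower, 3.41 against 5.74 CPM). Injured artery 3 stood above for Fgf1 (0.925) and Syt1 (0.926) and below for Diaph1 (0.840, 75.6 against 92.6 CPM). Injured artery 2 stood above for Plau (0.851, 39.7 against 26.3 CPM) and Ncf1 (0.966, 45.0 against 26.5 CPM).

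For the summed sympathetic neuron markers the ratio was 0.999618 in the controls, from control artery 4, and 0.938 in the injured arteries, from injured artery 3. For the summed brain markers, which include Gfap, it was 0.980 in control artery 4 (29.5 against 1.80 CPM).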

How the results depend on the processing

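Calls among the S100A genes changed readily. They numbered 2 in the main comparison, 1 with library totals only, no filter, at least 10 counts in every artery or the replicate block, and 0 when tested against a fold change of 2. Members called higher numbered 0 with no filter (S100a9 adjusted p = 0.0614 in edgeR's test), with at least 10 counts, which left S100a9 untested, and against a fold change of 2. Members called lower numbered 0 with library totals, the block or against a fold change of 2. With the adjusted p alone, 2 members were called lower, with S100a4 added. With 1 artery left out, 0 to 2 members were called, 0 to 1 in each direction.

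For all genes, 1562 were called, against 1007 (715 higher) with at least 10 counts in every artery, 661 (600 higher, 61 lower) when tested against a fold change of 2, 2468 (918 lower) with the adjusted p alone and 2473 (1800 higher, 673 lower) with control artery 4 and injured artery 3 removed. With 1 artery left out the range was 1142 to 2398, 945 to 1817 higher and 197 to 581 lower. With library totals 85.1% of calls were higher, against 76.4%. Of the 93 marker genes 42 were called, against 26 with at least 10 counts, 23 against a fold change of 2 and 28 to 46 with 1 artery left out. For partners that range was 9 to 11, and for other S100 genes 0.

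With the replicate number as a block, 234 genes were called lower, S100a9 was called at 2.39 (adjusted p = 0.0300 in edgeR's test), S100a1 was not at -1.22 (adjusted p = 0.0627) and Ager was not at 1.14 (adjusted p = 0.0525). S100a4 was at -0.46 (adjusted p = 0.137). The numbers were not taken as pairs, because the labels do not link the arteries. The deviations of same-numbered arteries correlated at 0.301, 0.450, -0.520 and -0.416, and 1 of 4 pairs was best both ways. These correlations cannot decide the pairing. Control artery 4 and injured artery 3 stood apart from their groups in summed sympathetic neuron markers, at 11289 and 3169 CPM. Their deviations carry that difference, whichever rats they came from. The block turned S100a3 to 0.30, S100b to 0.0399 and Syt1 to 4.34.

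Other signs turned only for genes that the main comparison did not call. Upper-quartile factors turned S100a3 to 0.10, Bsg to 0.0424 and S100b to 0.0781. Library totals turned S100a3 to 0.11, S100a13 to 0.0800, S100a16 to 0.0058, Bsg to 0.13 and S100b to 0.13. At least 10 counts in every artery turned S100a3 to 0.0016 and S100b to 0.0075. RLE factors and DESeq2 turned S100a10 to -0.0054 and -0.0096. With control artery 4 and injured artery 3 removed, S100a3 was at 0.64, Bsg at 0.0183, S100b at 0.0367 and Syt1, then called, at 4.62. With 1 artery left out the ranges were -0.55 to 1.16 for S100a3, -0.12 to 0.19 for S100a10, -0.55 to 0.57 for S100b, -0.12 to 0.0649 for Bsg, -2.22 to 0.34 for Fgf1 and -5.77 to 7.85 for Syt1. The cause was not tested. Depth limits S100a8 and S100a9, which had at most 10 and 82 counts in an artery.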
